A study of Mus musculus with 6 samples.

Results

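Genes of the interleukin-1 (IL-1) family, IL-6 and the inflammasome were followed in mouse splenocyte cultures: Il1a, Il1b, Il1rn, Il18, Il6, Il1r1, Il1r2, Il1rl1, Nlrp3 and Casp1. They were taken from the table of raw exon reads by gene symbol, so that 10 of 23453 gene rows are described, and 10 of 10 symbols were found. The cultures came from OT1 mice on the C57BL/6 strain, whose transgenic T cell receptor recognises an OVA peptide, and are given as wild type beyond that transgene. The labels do not state the age of the mice. The OVA peptide was given to both groups for 48 h, followed by a medium for 8 h, FCM in one group and TCM in the other, and the labels do not spell out either abbreviation. In the sample titles the FCM group is named Vehicle. There were 3 libraries in each group, 6 in all, and whether the replicates came from separate animals or cultures is not stated, so p-values rest on a spread between libraries that may be technical. The cultures were whole splenocytes, while the labels call the cell type cytotoxic T lymphocytes.

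The column titles of the count table and of the normalized table contradict each other. For 6 of 6 normalized columns, the matching counts stood under the opposite title with an unchanged replicate number, and 0 matched the counts under their own title. Which table carries the right titles cannot be told apart from these sources. Groups are therefore named here as Vehicle-titled and TCM-titled after the count table, and each higher or lower statement about these 2 groups turns around under the titles of the normalized table. Levels are CPM, the counts of a gene scaled to a common library total, with TMM factors for library composition. Changes are log2 fold changes of the TCM-titled over the Vehicle-titled libraries with their standard errors (SE), from edgeR's quasi-likelihood test, and a change passed at a Benjamini-Hochberg adjusted p under 0.05 over all 12423 genes tested. Library totals ran from 17166687 to 25789381 counts, and the least covered member, Il18, had at least 14 counts in each library. The ribosomal RNA row Rn45s took 11.2% of the counts in Vehicle replicate 1 and 11.6% in TCM replicate 1. In the other libraries it took 16.0% to 18.9%, and its part in differences between replicates was not tested.

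IL-1 alpha (Il1a) and IL-1 beta (Il1b) are inflammatory cytokines that bind the same receptor, IL-1R1 (Il1r1), which signals through MyD88 together with an accessory chain. Their action is limited by the receptor antagonist (Il1rn), which occupies IL-1R1 without signalling, and by the decoy receptor IL-1R2 (Il1r2). Pro-IL-1 beta and pro-IL-18 are made inactive and are cut by caspase-1 (Casp1), which is activated in inflammasomes by sensors such as NLRP3 (Nlrp3), whereas IL-6 (Il6) is secreted directly and acts through gp130 and STAT3. In spleen, macrophages, monocytes, neutrophils and dendritic cells are the best known sources of IL-1 and IL-6, and activated T cells respond to both. In bulk RNA, fewer cells of a type and less RNA per cell cannot be told apart.

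Of the agonist cytokine genes among the members, Il1a, Il1b and Il6 were each higher in the TCM-titled libraries. Il18 did not pass, with a log2 change of -0.58. The promoters of the 3 higher genes are shown. Each line holds the 250 bases before the start site that RefSeq gives on GRCm38.p6, read 5′ to 3′ on the strand of the gene, and capitals mark matches to the motifs named below.
Il1a (chr2:129309973-129310222, minus strand): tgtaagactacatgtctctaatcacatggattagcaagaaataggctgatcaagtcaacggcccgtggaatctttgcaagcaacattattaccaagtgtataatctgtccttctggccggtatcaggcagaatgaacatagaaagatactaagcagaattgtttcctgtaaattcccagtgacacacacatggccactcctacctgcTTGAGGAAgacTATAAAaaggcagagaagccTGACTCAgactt
Il1b (chr2:129371140-129371389, minus strand): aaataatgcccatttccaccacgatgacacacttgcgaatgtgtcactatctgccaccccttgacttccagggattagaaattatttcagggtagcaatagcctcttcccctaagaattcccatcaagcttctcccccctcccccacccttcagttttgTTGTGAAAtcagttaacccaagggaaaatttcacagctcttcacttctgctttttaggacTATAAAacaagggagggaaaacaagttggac
Il6 (chr5:30012864-30013113, plus strand): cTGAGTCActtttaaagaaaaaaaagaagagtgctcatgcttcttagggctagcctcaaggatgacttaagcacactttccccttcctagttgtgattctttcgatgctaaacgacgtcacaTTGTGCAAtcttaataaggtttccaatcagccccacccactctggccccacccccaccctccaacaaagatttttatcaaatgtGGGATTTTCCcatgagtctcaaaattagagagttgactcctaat
The motifs searched were the kappa B site bound by NF-kB, the AP-1 site TGANTCA, the cyclic AMP element TGACGTCA and a C/EBP site written TTNNGNAA, each on both strands, and the TATA box TATAAA on the strand of the gene. The Il6 window held a kappa B match at -44 to -35, an AP-1 match at -249 to -243 and a C/EBP match at -128 to -121, counted back from the start site. The Il1a window held a C/EBP match at -43 to -36, a TATA box at -32 to -27 and an AP-1 match at -12 to -6. The Il1b window held a C/EBP match at -91 to -84 and a TATA box at -31 to -26. Among all 32851 windows of the same length, 3.9% held the kappa B motif, 6.75% AP-1, 1.55% the cyclic AMP element, 36.8% the C/EBP motif and 7.59% the TATA box. The cyclic AMP element had no match in these 3 windows, no match shown overlaps another, and these are matches of letters only. Windows of other members, not shown, held some of the same motifs, while those of Il18, Casp1 and Il1r2 held no match. A kappa B match lay at -186 to -177 in a window of Nlrp3, which was lower, and at -232 to -223 in a window of Il1r1, which was higher. An AP-1 match lay at -141 to -135 in a window of Il1rn, which was higher. A link between motifs and direction was not tested.

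In the TCM-titled libraries the genes of IL-6, IL-1 alpha, IL-1 beta, the IL-1 receptor antagonist and the signalling receptor IL-1R1 were higher, and those of the decoy receptor IL-1R2 and of the sensor NLRP3 were lower. Il18, Il1rl1 and Casp1 did not pass the test. This makes 7 of 10 members, 5 higher and 2 lower, against a background in which 58.8% of all tested genes passed, 28.8% higher and 30.0% lower, so the number of members that passed is near the background. The median of the absolute log2 change was 1.05 over the 10 members and 0.55 over all tested genes, and the median signed change was 0.22 and -0.018. For 8 of 10 members both groups were fully apart, where 64.2% of all tested genes showed no overlap. Without replicate 1 of both groups, 5 members were higher and 3 lower, and with the replicate number as a block 5 were higher and 4 lower. No label states that equal numbers pair the libraries, so each call under this block rests on an assumed pairing. With library totals in place of TMM, 3 were higher and 3 lower. That scaling moved the median change of all genes by -0.21, and relative to that median Il1b stood at 0.88 with TMM and 0.91 with library totals, and Il1rn at 0.51 and 0.50.

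**Figure D1:**
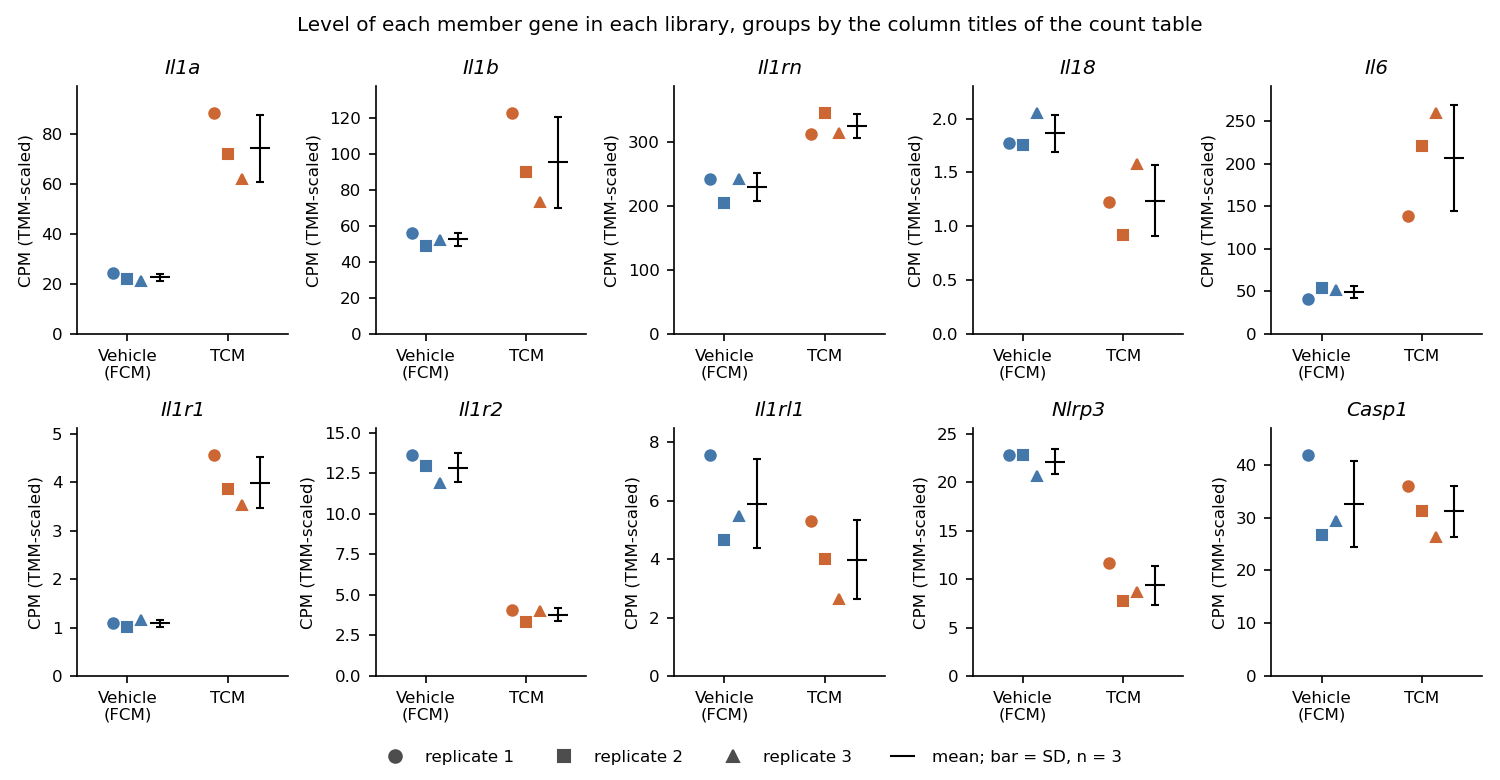
Level of each of the 10 member genes in CPM (vertical axis, linear from 0) in each library, with the groups by the count table's titles on the horizontal axis and the mean ± SD (n = 3) as a bar. The libraries of the groups do not overlap in 8 panels, and overlap for Il1rl1 and Casp1.

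The libraries held RNA of several cell types beside T cells, whose markers moved between the groups as well. For comparison with the counts below, 30.0% of all tested genes were lower in the TCM-titled libraries and 28.8% higher. Of the neutrophil markers 10 of 10 tested were lower in the TCM-titled libraries, with a summed level of 8020 to 12566 CPM in the Vehicle-titled and 1132 to 2179 CPM in the TCM-titled libraries. Of the macrophage and monocyte markers 7 of 10 tested were lower, 1 was higher (Cd14) and 2 did not pass, with sums of 979 to 1149 against 284 to 292 CPM. Most of that sum in the Vehicle-titled libraries was Lyz2 and Ly6c2. Their means were 414 and 436 against 32.7 and 102 CPM. The 2 that did not pass were Emr1 (means of 13.7 against 12.5 CPM) and Cd68 (35.8 against 32.1 CPM). Of the mast cell and basophil markers 6 of 6 tested were lower, with sums of 79.8 to 92.1 against 19.2 to 23.7 CPM. Of the dendritic cell markers 3 of 6 tested were lower (Clec9a, Siglech and Itgax) and Batf3 was higher, with sums of 34.8 to 37.9 against 42.1 to 51.5 CPM, and Cd209a stood at 0 counts in 6 libraries. Without Batf3 the dendritic cell sums were 30.6 to 33.1 against 14.3 to 16.3 CPM. B cell markers were lower in 5 of 6 (1723 to 2084 against 911 to 1106 CPM), natural killer cell markers in 3 of 4 (61.3 to 68.4 against 27.1 to 29.3 CPM) and erythroid and platelet markers in 5 of 6 (40.8 to 66.1 against 12.6 to 22.8 CPM). Most of the natural killer cell sum was Eomes, at 48.1 to 55.7 against 19.6 to 20.5 CPM. The means of Klre1 were 8.26 against 4.74 CPM, of Ncr1 3.54 against 2.09 CPM and of Klrb1c, which did not pass, 1.76 against 1.52 CPM. Each of these lists, the dendritic cell list once Batf3 is left out, had lower sums in each TCM-titled library. Stromal and endothelial markers, 2 of which were tested, summed to 28.0 to 35.9 against 10.6 to 11.98 CPM, with 1 lower. Most of that sum was the lower gene, Pecam1, with means of 30.8 against 9.99 CPM. Col1a1, which did not pass, had means of 0.941 against 0.872 CPM. Of 7 T cell markers Thy1 was higher, Cd8a and Cd4 were lower and 4 did not pass (732 to 856 against 1256 to 1484 CPM, and 455 to 490 against 444 to 465 CPM without Thy1). Of 4 regulatory T cell markers Il2ra and Ctla4 were higher and Foxp3 and Ikzf2 lower (581 to 615 against 1102 to 1147 CPM). Il2ra made up most of that sum, with means of 460 against 698 CPM, and Ctla4 had 46.5 against 375 CPM. The means of Foxp3 were 35.0 against 14.7 CPM and those of Ikzf2 54.2 against 34.5 CPM, so the rise of the sum is not that of Foxp3. The part of these cell types in the changes of the members was not tested.

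Il1a had 24.4, 22.2 and 21.4 CPM in Vehicle-titled replicates 1 to 3 and 88.6, 72.1 and 62.0 CPM in TCM-titled replicates 1 to 3. All 3 TCM-titled libraries lay above all 3 Vehicle-titled ones, and replicate 1 was the highest in both groups. The level went from 22.6 ± 1.55 to 74.2 ± 13.4 CPM (SD, n = 3), a 3.28-fold rise with a log2 change of 1.71 ± 0.15 (SE; edgeR, adjusted p = 2.6e-05). Il1b had 56.4, 49.1 and 52.2 CPM in the Vehicle-titled libraries and 123, 90.0 and 73.2 CPM in the TCM-titled ones. The groups did not overlap, replicate 1 was again the highest in both, and the TCM-titled libraries spread more widely (coefficient of variation 26.6% against 6.94%). The rise of Il1b was 1.82-fold, from 52.6 ± 3.65 to 95.4 ± 25.4 CPM (SD, n = 3), with a log2 change of 0.86 ± 0.19 (SE; edgeR, adjusted p = 0.00397). It did not pass with library totals as scaling (log2 change 0.68, adjusted p = 0.0589, edgeR). Il1a and Il1b are neighbours on chromosome 2 (129299610 to 129309972 and 129364570 to 129371139, GRCm38), 54.6 kb apart and both on the minus strand. Exons of Il1a overlap those of Gm14023 and exons of Il1b those of Il1bos, and the strand setting of the counting is not given, so reads of these pairs cannot be told apart. The summed macrophage and monocyte markers and the neutrophil markers were lower in the same libraries in which Il1a and Il1b were higher. Among the macrophage and monocyte markers, though, Cd14 was higher there, and Emr1 and Cd68 did not pass.

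Il1rn, which encodes the antagonist of both cytokines, had 243, 205 and 243 CPM in the Vehicle-titled libraries and 313, 346 and 314 CPM in the TCM-titled libraries. The groups did not overlap, and the step was the smallest among the members that passed. It rose 1.41-fold, from 230 ± 21.8 to 325 ± 18.8 CPM (SD, n = 3), with a log2 change of 0.50 ± 0.14 (SE; edgeR, adjusted p = 0.0151). This call ended without Vehicle replicate 2 (adjusted p = 0.0804, edgeR), without TCM replicate 2 (adjusted p = 0.0668, edgeR) and with library totals (log2 change 0.28, adjusted p = 0.192, edgeR). The count does not separate the secreted from the intracellular forms of the antagonist. Per kilobase (kb) of exons, the level of Il1rn divided by the summed level of Il1a and Il1b was 1.05, 1.001 and 1.15 in the Vehicle-titled libraries and 0.517, 0.747 and 0.814 in the TCM-titled libraries. The ratio was thus lower in each TCM-titled library, and lowest in TCM replicate 1, where Il1a and Il1b were highest. The mean ratio was 1.07 ± 0.0745 against 0.693 ± 0.156 (SD, n = 3), a log2 difference of -0.65, and the exact two-sided permutation test gave p = 0.1, the smallest that 3 against 3 libraries allow. The level of this ratio depends on the exon lengths used. Without length scaling its log2 difference was -0.65 as well.

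**Figure D2:**
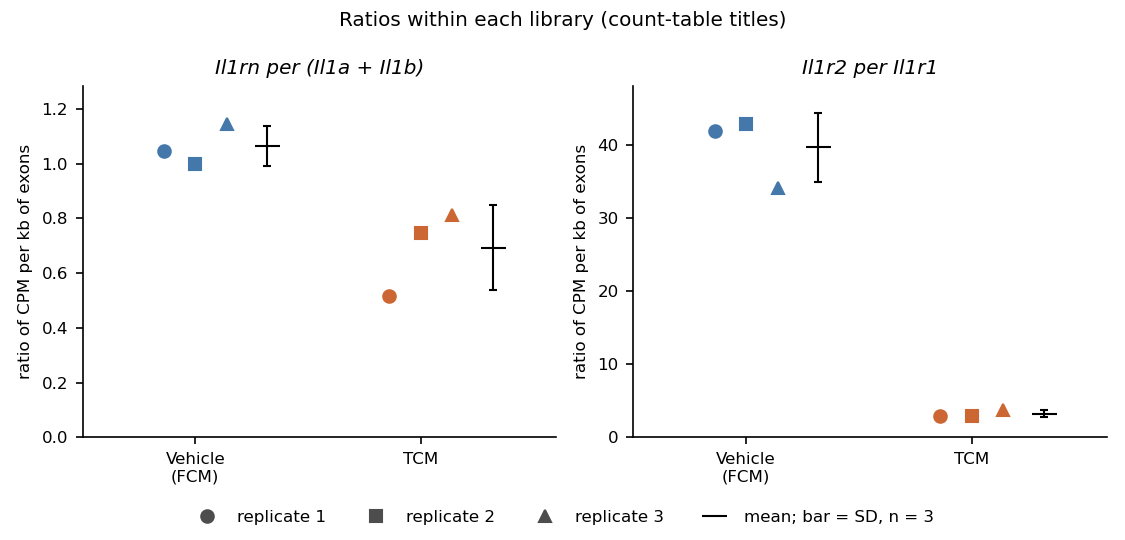
Ratio of length-scaled levels (CPM per kb of exons, linear axis from 0) within each library for Il1rn over the sum of Il1a and Il1b, and for Il1r2 over Il1r1, with mean ± SD (n = 3) and groups by the count table's titles. The first ratio lies at 1.001 to 1.15 in the Vehicle-titled and 0.517 to 0.814 in the TCM-titled libraries, and the second at 34.1 to 42.9 and 2.88 to 3.76.

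Il6, the gene of a cytokine that drives acute phase responses and the differentiation of B and T cells, had 40.8, 54.5 and 52.1 CPM in the Vehicle-titled libraries. It had 139, 221 and 260 CPM in the TCM-titled libraries, all of them above the highest Vehicle-titled library. Replicate 1 was the lowest of its group on both sides, opposite to its place for Il1a and Il1b. The rise was 4.20-fold, the largest among the 10 members, from 49.1 ± 7.31 to 206 ± 61.9 CPM (SD, n = 3), with a log2 change of 2.07 ± 0.24 (SE; edgeR, adjusted p = 0.000114). Il6 lies on chromosome 5 (30013114 to 30019981) and overlaps no other gene model in GENCODE M21.

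Of the other IL-6 family cytokines, 4 of 5 tested genes were higher in the TCM-titled libraries and none was lower. Over all tested genes 28.8% were higher and 30.0% lower. Lif, the gene of leukemia inhibitory factor, went from 227 ± 12.1 to 398 ± 5.95 CPM and Osm (oncostatin M) from 30.9 ± 2.51 to 46.6 ± 1.56 CPM (SD, n = 3), with log2 changes of 0.81 and 0.59, and Osm did not pass with library totals (adjusted p = 0.0823, edgeR). Il27 and Ebi3, which encode both chains of IL-27, changed by 0.56 and 0.46, and each of these calls ended with library totals and without any one of Vehicle replicates 1 and 3 and TCM replicates 2 and 3 (leaving out 1 library gave adjusted p up to 0.123 and 0.108, edgeR). Clcf1 had a log2 change of -0.53 that did not pass (adjusted p = 0.051, edgeR), and it passed with the replicate block (-0.55, adjusted p = 7.69e-07, edgeR), with library totals, with no filter and without Vehicle replicate 1, TCM replicate 3 or both replicate 1 libraries. On the receiving side, 6 of 10 genes for the IL-6 receptor and its signalling were lower and 1 was higher. The shares of all tested genes were 30.0% lower and 28.8% higher, and 58.8% in either direction. Il6ra, the gene of the IL-6 binding chain, changed by -0.75 ± 0.13 and Il6st, which encodes the shared signalling chain gp130, by -0.76 ± 0.16 (SE). Adam17, whose product sheds the IL-6 receptor, changed by -0.83, and the kinase genes Tyk2 and Jak2 by -1.31 and -1.06. Stat3 had 315 ± 15.4 and 328 ± 53.3 CPM (SD, n = 3) and a log2 change of 0.062 that did not pass (adjusted p = 0.754, edgeR). Socs3, the feedback inhibitor of gp130 signalling, was the single gene of this list that was higher, at 224, 355 and 340 against 556, 818 and 901 CPM. It is named outside the rule for named genes, after its values were seen, and its log2 change was 1.31 ± 0.24 (SE; edgeR, adjusted p = 0.00174). As for Il6, replicate 1 was the lowest library of each group for Socs3.

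Il18, which encodes a cytokine that raises interferon gamma in T and natural killer cells, was the least covered member. It had 39, 47 and 53 counts in the Vehicle-titled libraries and 23, 14 and 28 counts in the TCM-titled libraries. In CPM the libraries stood at 1.77, 1.76 and 2.06 against 1.22, 0.917 and 1.57, without overlap. The log2 change of -0.58 ± 0.24 (SE) did not pass (adjusted p = 0.0627, edgeR). It passed with the replicate block (-0.58, adjusted p = 0.0361, edgeR), with library totals (-0.79, adjusted p = 0.0284, edgeR) and without TCM replicate 3 (-0.77, adjusted p = 0.0426, edgeR). The span of Il18 on chromosome 9 (50554827 to 50581840) overlaps Bco2 and Tex12, without overlap of exons. The genes around IL-18 changed more: Il18bp, the gene of its soluble inhibitor, whose exons overlap those of Numa1, fell 3.04-fold from 54.7 ± 3.38 to 18.0 ± 1.98 CPM (SD, n = 3; edgeR, adjusted p = 1.25e-05). The receptor chain genes Il18r1 and Il18rap fell 2.95-fold and 3.98-fold, to 4.53 ± 0.918 and 2.16 ± 0.326 CPM (SD, n = 3). In the same libraries 3 of 4 tested natural killer cell markers were lower, and Klrb1c did not pass.

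The 2 receptors for IL-1 changed in opposite directions. Il1r1, the signalling receptor, had 1.09, 1.01 and 1.16 CPM in the Vehicle-titled libraries and 4.58, 3.86 and 3.54 CPM in the TCM-titled libraries, from 24 to 30 and 59 to 86 counts. The groups did not overlap and the rise was 3.67-fold, a log2 change of 1.87 ± 0.19 (SE; edgeR, adjusted p = 5.69e-05). Il1r2, the decoy, had 13.7, 13.0 and 11.9 CPM against 4.04, 3.34 and 3.99 CPM. Its 3.37-fold fall from 12.8 ± 0.885 to 3.79 ± 0.392 CPM (SD, n = 3) gave a log2 change of -1.75 ± 0.14 (SE; edgeR, adjusted p = 1.27e-05). Il1r2 is best known from neutrophils, monocytes and regulatory T cells, and in the same libraries 10 of 10 neutrophil markers and 7 of 10 macrophage and monocyte markers were lower, while the regulatory T cell markers were divided, with Foxp3 and Ikzf2 lower and Il2ra and Ctla4 higher. Per kb of exons, the level of Il1r2 was 41.8, 42.9 and 34.1 times that of Il1r1 in the Vehicle-titled libraries and 2.95, 2.88 and 3.76 times in the TCM-titled libraries. The log2 difference of this ratio was -3.63, and the exact two-sided permutation test gave p = 0.1, again the smallest possible.

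Il1rl1 encodes ST2, the receptor for IL-33 on mast cells, type 2 lymphoid cells and regulatory T cells, in a membrane and a soluble form that the count does not separate. It had 7.58, 4.64 and 5.47 CPM in the Vehicle-titled and 5.32, 3.99 and 2.64 CPM in the TCM-titled libraries. The groups overlapped, replicate 1 was the highest in both, and the log2 change of -0.55 ± 0.27 (SE) did not pass (adjusted p = 0.103, edgeR). It passed once replicate numbers entered as a block (-0.58, adjusted p = 0.000729, edgeR), without TCM replicate 1 (-0.83, adjusted p = 0.0222, edgeR) and without replicate 1 of both groups (-0.63, adjusted p = 0.00976, edgeR). Its ligand gene Il33 had 4 counts over the Vehicle-titled and 3 over the TCM-titled libraries and was not tested. In the same libraries 6 of 6 tested mast cell and basophil markers were lower. Over all tested genes 30.0% were lower and 28.8% higher. Of the other IL-1 family receptors, 4 of 5 tested were lower and none was higher. Besides Il18r1 and Il18rap these were Il1rap, the accessory chain of the IL-1 and IL-33 receptors, at 9.01 ± 0.558 against 6.00 ± 0.092 CPM (SD, n = 3), and the negative regulator Sigirr at 12.03 ± 0.242 against 8.28 ± 1.57 CPM. Their log2 changes were -0.58 and -0.54, and Sigirr did not pass without TCM replicate 3 (adjusted p = 0.0513, edgeR).

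A group of 6 of these receptor genes lies side by side on chromosome 1 within 478 kb, all on the plus strand. In order they were Il1r2 (start 40074079), Il1r1 (40225080), Il1rl2 (40324610), Il1rl1 (40429570), Il18r1 (40465552) and Il18rap (40515362, end 40551705). Their log2 changes in that order were -1.75, 1.87, 0.31, -0.55, -1.56 and -1.99. Il1r1 was thus the single gene of the 6 that rose, between the falling Il1r2 on one side and Il1rl2, the receptor gene for IL-36, which did not pass (adjusted p = 0.233, edgeR), on the other. Il1rl2 is named outside the rule for named genes.

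**Figure D3:**
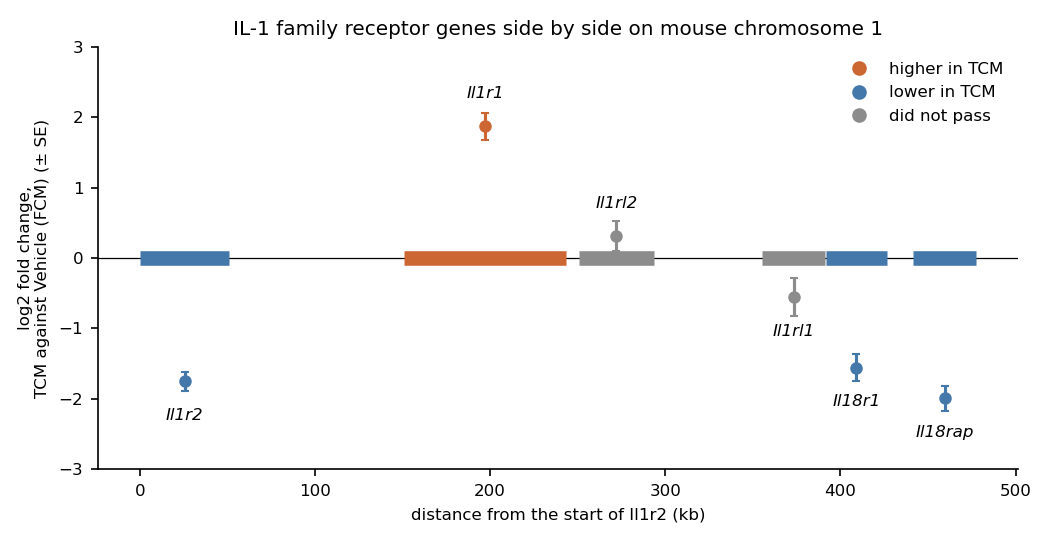
Log2 fold change ± SE of the 6 receptor genes (vertical axis) against their distance in kb from the start of Il1r2 (horizontal axis), with thick bars on the zero line for the gene spans, by the count table's titles. Il1r1 lies at 1.87 above zero, while Il1r2, Il18r1 and Il18rap lie at -1.75, -1.56 and -1.99.

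A further ligand gene changed more than any member. Il1f6, the older symbol of Il36a, which encodes IL-36 alpha, had 0, 1 and 1 counts in the Vehicle-titled and 74, 86 and 109 counts in the TCM-titled libraries. The scaled ratio of the pooled counts was 193 with an exact 95% counting interval of 53.0 to 1605, which covers counting error only. The separate estimate of the edgeR fit was a log2 change of 7.32, a 160-fold difference (adjusted p = 2.43e-06, edgeR). Il1f9 (Il36g, IL-36 gamma), whose gene lies 21.9 kb away on chromosome 2, had 31.3, 26.8 and 23.5 against 23.9, 24.4 and 23.5 CPM. The groups overlapped and its log2 change of -0.18 ± 0.13 (SE) did not pass (adjusted p = 0.25, edgeR). Il1f6 (24215418 to 24225702) lies 111 kb from Il1rn (24336853 to 24351494) in the same stretch of chromosome 2. Il1f8 (Il36b) and Il1f10 had 0 counts in all 6 libraries, and Il36rn was matched to no row.

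Nlrp3, the gene of the sensor that starts assembly of the best studied inflammasome, had 22.9, 22.9 and 20.6 CPM in the Vehicle-titled libraries and 11.7, 7.79 and 8.71 CPM in the TCM-titled libraries. The groups were well apart, and TCM replicate 1 was the highest of its group. Its 2.35-fold fall, from 22.1 ± 1.29 to 9.39 ± 2.02 CPM (SD, n = 3), gave a log2 change of -1.23 ± 0.16 (SE; edgeR, adjusted p = 0.000216). Casp1, the protease that matures IL-1 beta and IL-18, had 41.9, 26.7 and 29.4 CPM against 35.9, 31.3 and 26.3 CPM. The groups overlapped throughout, with replicate 1 the highest in both, and the log2 change of -0.065 ± 0.19 (SE) did not pass (adjusted p = 0.781, edgeR). Its sign turned to 0.15 without Vehicle replicate 1, 0.054 without TCM replicate 3 and 0.026 without replicate 1 of both groups. Nlrp3 (chromosome 11, 59541568 to 59566956) and Casp1 (chromosome 9, 5298517 to 5307265) overlap no other gene model.

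Of the other inflammasome sensors and adaptors, 7 of 13 tested genes were lower and 3 higher, with a median log2 change of -1.23 beside -0.018 over all tested genes. The shares over all tested genes were 30.0% lower and 28.8% higher. Mefv, which encodes the sensor pyrin, fell 7.30-fold from 19.8 ± 2.14 to 2.701 ± 0.334 CPM (SD, n = 3; edgeR, adjusted p = 1.41e-06). Nlrp1b fell from 2.21 ± 0.116 to 0.266 ± 0.0628 CPM, on 3 to 6 counts in each TCM-titled library. Txnip, a stress-induced binding partner of NLRP3, fell 2.34-fold, and Nlrc4 and 3 Naip genes, which sense bacterial flagellin and secretion system proteins, were the rest of the 7 (Nlrc4 is named outside the rule). The Naip genes are close copies of one another, so how their reads were divided is uncertain. Nlrp12, named after its values were seen, had 8, 24 and 18 counts in the Vehicle-titled libraries and 0 in the TCM-titled libraries. It was at least 9.08-fold lower there by the exact 95% limit for counting error, and 11.6-fold against a floor of 3 counts over the group, and was below the filter of the test. The higher genes were P2rx7, the ATP-gated channel that triggers NLRP3, Panx1, a channel that releases ATP, and Pycard, the adaptor ASC. P2rx7 went from 2.97 ± 0.105 to 8.36 ± 1.09 CPM (SD, n = 3), a 2.81-fold rise, and Panx1, named outside the rule, from 25.2 ± 1.62 to 55.8 ± 4.47 CPM. Pycard had 19.4, 14.4 and 17.6 against 21.0, 25.5 and 23.8 CPM, a log2 change of 0.45 ± 0.14 (SE; edgeR, adjusted p = 0.0222) that did not pass with library totals or without any one of replicates 2 and 3 of either group (leaving out 1 library gave adjusted p up to 0.0825, edgeR). Downstream, Gsdmd, the pore-forming protein of pyroptosis, fell 2.67-fold from 35.7 ± 3.84 to 13.3 ± 0.945 CPM and Casp8 fell 1.48-fold. The inflammatory caspase gene Casp4 and the membrane rupture gene Ninj1 did not pass, at -0.079 and -0.098. In the same libraries as the sensors 10 of 10 neutrophil markers and 7 of 10 macrophage and monocyte markers were lower, and Cd14 was higher.

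Genes that carry the signal of the IL-1 receptor were divided between both directions. Of 16 tested, 4 were higher, 5 lower and 7 did not pass, with a median of -0.22. Among all tested genes 28.8% were higher and 30.0% lower. The adaptor gene Myd88 had 94.4 ± 11.4 and 102 ± 6.06 CPM (SD, n = 3) and did not pass (log2 change 0.12, adjusted p = 0.476, edgeR), with the sign reversed under library totals. Map3k8, a kinase of the ERK branch, rose 1.98-fold from 36.6 ± 0.775 to 72.4 ± 3.94 CPM (SD, n = 3; edgeR, adjusted p = 9.71e-05). Irak3, an inhibitory kinase of the pathway, fell 1.72-fold from 22.6 ± 2.73 to 13.1 ± 1.08 CPM (SD, n = 3). The other genes that passed were Nfkbiz, Ube2n and Ube2v1 upward and Irak4, Irak2, Traf6 and Tab1 downward, with log2 changes between -0.60 and 0.53, Irak4 being the lowest and Nfkbiz the highest. Irak2, Traf6, Tab1, Ube2n and Ube2v1 are named outside the rule to spell out these counts. Each of these 7 calls ended when some single library was left out, with adjusted p up to 0.183 in edgeR. The libraries were Vehicle replicates 2 and 3 for Nfkbiz, and Vehicle replicate 2 and TCM replicates 2 and 3 for Irak4. They were all but TCM replicate 1 for Irak2, Traf6 and Ube2n. For Ube2v1 they were Vehicle replicates 1 and 3 and TCM replicates 2 and 3, and for Tab1 replicates 1 and 2 of both groups. With library totals Nfkbiz, Ube2n, Ube2v1 and Irak2 did not pass either (adjusted p = 0.271, 0.414, 0.634 and 0.068, edgeR). Irak2 and Tab1 did not pass in DESeq2, Irak2 and Traf6 with RLE factors, and Irak2, Traf6, Ube2n and Ube2v1 with no filter. Over the 7 pathway lists, 56 genes were tested, 13 were higher, 25 lower and 18 did not pass, which is 67.9% passed beside 58.8% of all genes. Among the named pathway genes, exons of Irak3 overlap those of Tmbim4, Irak4 those of Twf1, Myd88 those of Acaa1a, Adam17 those of Iah1, Stat3 those of Stat5a and Il27 those of Apobr, so reads of these pairs are uncertain too.

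**Figure D4:**
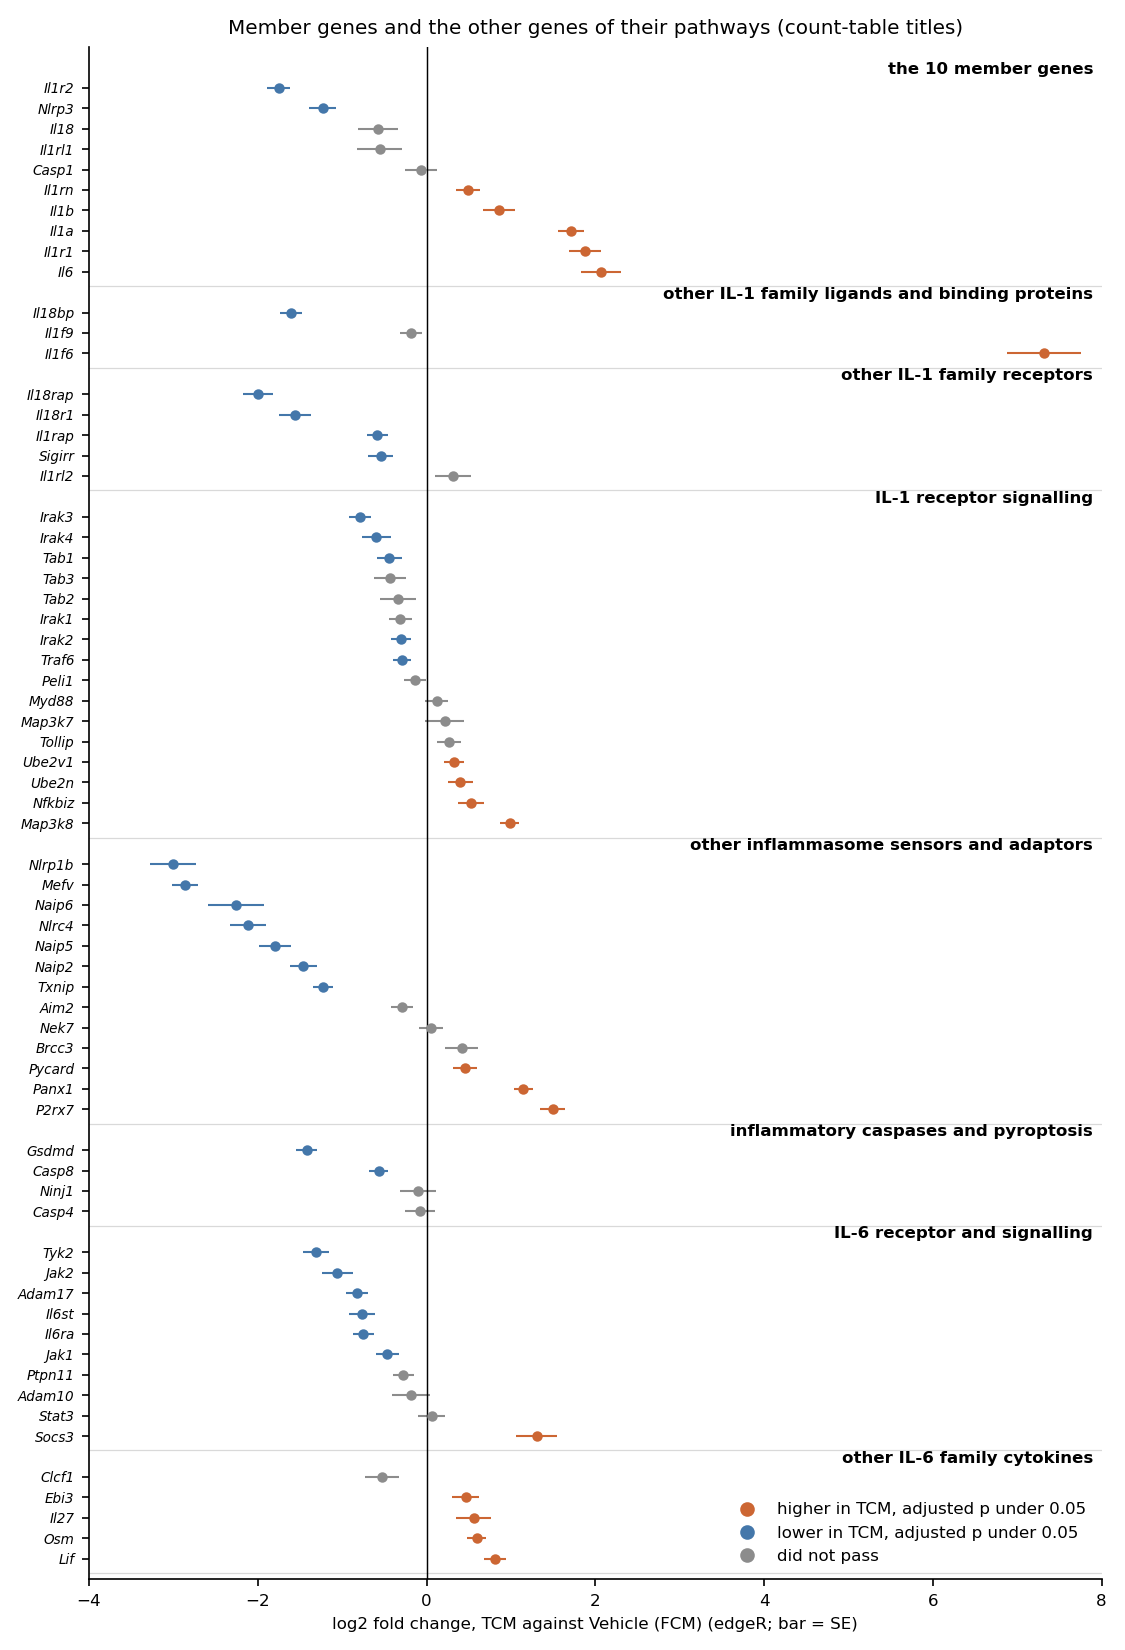
Log2 fold change of the TCM-titled over the Vehicle-titled libraries with its SE (horizontal axis) for the 10 members and the 56 tested genes of 7 pathway lists (vertical axis), coloured by whether the adjusted p in edgeR was under 0.05. Il1f6 stands at 7.32, beyond all others, and the inflammasome list has its median at -1.23.

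Per kb of exons, the order of the members differed between the groups. The lengths are those of all annotated exons of a gene, merged, and may differ from those of the transcripts present. Levels of different genes can thus be compared only roughly, and the same holds for the levels of the 2 ratios above. In the Vehicle-titled libraries Il1rn led at 41.6 ± 3.95 CPM per kb (SD, n = 3), followed by Il1b at 27.6 ± 1.91, Casp1 at 21.8 ± 5.44 and Il6 at 20.2 ± 3.01. Libraries of Il1b and Casp1 overlapped in level, and so did those of Casp1 and Il6. Below them stood Il1a at 11.5, Il1r2 at 6.73, Nlrp3 at 5.45, Il18 at 1.81, Il1rl1 at 0.855 and Il1r1 at 0.171 CPM per kb, each apart from its neighbour. In the TCM-titled libraries Il6 led at 85.0 ± 25.5 CPM per kb (SD, n = 3), before Il1rn at 58.6 ± 3.39, Il1b at 50.04 ± 13.3 and Il1a at 37.6 ± 6.79. These 4 overlapped from each to the next. Casp1 followed at 20.8, then Nlrp3 at 2.31 and Il1r2 at 1.99, which overlapped, then Il18 at 1.20, and Il1r1 at 0.628 and Il1rl1 at 0.578 CPM per kb, which overlapped.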

How the data were processed

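RNA sequencing of 6 splenocyte libraries was analysed from 2 deposited tables. Exon reads per gene symbol are whole numbers in the deposited count table. In the deposited normalized table the authors' values are a signal, counts divided by 1 size factor per library. STAR 2.7.2d, DESeq2 1.28.1 and the build mm10 are named per the submitters' processing notes, without their roles. The counter, gene annotation and strandedness are not given in the sources. The 92 spike-in rows held 0 counts and were left out.

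Reads recovered from the steps of the normalized values were whole in 100% of cases (tolerance 0.1 reads). Under that table's titles, edgeR on them called 3726 genes higher and 3584 lower.

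The main test was edgeR 4.0.16 (R 4.3.3) with TMM on the 12423 genes that filterByExpr kept. Exon lengths, taken over all annotated exons of a gene merged, and positions are from GENCODE M21. The code was tested on simulated data. Depth limits precision, since 1 count was worth 0.0374 to 0.0655 CPM with TMM factors. Deviations of same-numbered libraries from their group means had r = 0.60, 0.15 and 0.36 over tested genes for replicates 1, 2 and 3. The main test took no pairing. The replicate block, an alternative, assumes a pairing by number that no label states and these correlations do not show. Vehicle replicate 2 with TCM replicate 3 (0.42) and Vehicle replicate 3 with TCM replicate 2 (0.27) exceeded the value of replicate 2, so numbers 2 and 3 are not told apart. Members and lists were chosen with earlier results of these data known. Named by rule are the 10 members, at most the 4 genes with the smallest p in each of 7 pathway lists, 9 fixed genes (Il1rap, Il18bp, Il18r1, Il6ra, Il6st, Myd88, Pycard, Gsdmd, Stat3), and the 3 genes nearest to each member in profile. Some genes are not reported here and were left out of the lists and their counts. Older symbols were matched through RefSeq synonyms. Ratios were compared with exact permutation tests. Alternatives were DESeq2 1.42.0, RLE factors, library totals, no filter, each library or both replicate 1 libraries left out, the replicate block and the other table's titles.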

Additional observations from a re-analysis of the deposited data

How the results depend on the processing

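Leaving aside the other table's titles, 107 of 120 values of the 10 members over 12 settings kept direction and side of the threshold, 4 lost the call, 6 gained it and 3 changed sign (Casp1). Of 480 values of 40 other named genes, 406 kept both, 58 lost the call, 6 gained it and 10 changed sign. The calls of Il1a, Il1r1, Il1r2, Il6 and Nlrp3 held in 12 of 12 settings, with log2 changes of 1.52 to 1.84, 1.68 to 1.96, -1.97 to -1.67, 1.83 to 2.29 and -1.42 to -1.11. With library totals 2364 genes were called higher (37.4% of calls, against 49.0% with TMM) and 3 members higher. With the replicate block 4 members were lower, and the ratios had log2 differences of -0.50 (Il1rn over Il1a and Il1b) and -3.83 (Il1r2 over Il1r1) as the median of the 3 within-number differences, whose mean is the unblocked value by construction, each with an exact p of 0.25, the smallest 3 pairs allow. Besides Il18, Il1rl1 and Clcf1 the block changed no call among the 50 member and pathway genes refitted. Leaving out 1 library, or replicate 1 of both groups, gave 2878 to 4566 genes higher and 2818 to 4771 lower, 4 to 5 members higher and 2 to 3 lower. The ratios then ranged from -0.77 to -0.45 and from -3.76 to -3.54, where leaving out both replicate 1 libraries was chosen for the ratios after seeing the data. The cause of these changes was not tested. Signs changed in genes that did not pass. Casp1 had 0.15 without Vehicle replicate 1, 0.054 without TCM replicate 3 and 0.026 without replicate 1 of both, and Casp4 0.13, 0.0043 and 0.017, while both reached -0.19 without Vehicle replicate 2. Myd88 had -0.079 and Stat3 -0.13 with library totals, and -0.033 and -0.055 without replicate 1 of both. Stat3 had -0.077 without TCM replicate 1, and Ninj1 0.022 without Vehicle replicate 2, 0.048 without TCM replicate 1 and -0.29 without Vehicle replicate 1. Under the normalized table's titles 2 members were called higher and 5 lower, and 50 of 50 named log2 changes reversed by construction: Il1a -1.71, Il1b -0.86, Il1rn -0.50, Il1r1 -1.87, Il1r2 1.75, Il1rl1 0.55, Il18 0.57, Il6 -2.07, Nlrp3 1.23, Casp1 0.065, Il1f6 -7.32, Il1f9 0.18, Il18bp 1.61, Il1rap 0.58, Il18r1 1.56, Il18rap 1.99, Sigirr 0.54, Myd88 -0.12, Irak3 0.78, Irak4 0.60, Map3k8 -0.98, Nfkbiz -0.53, Nlrp1b 3.01, Mefv 2.87, Pycard -0.45, P2rx7 -1.49, Txnip 1.23, Casp4 0.079, Casp8 0.57, Gsdmd 1.42, Ninj1 0.098, Il6ra 0.75, Il6st 0.76, Jak2 1.06, Tyk2 1.31, Stat3 -0.062, Adam17 0.83, Il27 -0.56, Ebi3 -0.46, Lif -0.81, Osm -0.59, Panx1 -1.15, Socs3 -1.31, Il1rl2 -0.31, Clcf1 0.53, Irak2 0.31, Traf6 0.29, Tab1 0.44, Ube2n -0.40, Ube2v1 -0.33. Depth limits the fold of Il1f6, with 2 counts in the Vehicle-titled group.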

Other observations

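Over the 6 libraries, the genes whose centred log2 CPM profile lay nearest to a member's were found by Euclidean distance, where a distance of 0 would be the same profile up to level. For Il6 the nearest were Ier3 (0.11), an immediate early response gene, Zfp580 (0.14) and Cisd3 (0.15). Nearest to Il1a were St14 (0.12), Igf2bp2 (0.17) and Pmaip1 (0.19), the latter known as the p53 target Noxa. Among the nearest to Il1b were Zfp280b (0.19) and Fosl2 (0.20), an AP-1 subunit. Il1r2 had Arhgef18 (0.12), Lrrk2 (0.18) and Lyst (0.18) beside it, Il1r1 had Ctc1 (0.13), and Nlrp3 had 1700021K19Rik (0.14). For Casp1 the nearest was Hnrnpa2b1 (0.073), for Il1rn Rab7l1 (0.061), for Il18 Exog (0.16) and for Il1rl1 Rmi1 (0.16). These are descriptions over 6 libraries in 2 groups of 3, in which any gene with a like difference between the groups lies near.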
